A study of Mus musculus with 27 samples.

Results

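Small leucine-rich proteoglycans are secreted matrix proteins built around a row of leucine-rich repeats. The genes described here are Dcn, Bgn and Aspn of class I, Fmod, Lum, Prelp, Kera and Omd of class II, Ogn of class III and Chad of class IV. They are named members of the family, chosen with earlier results of these data known, and are 10 of the 30150 entries with a gene in the deposited table. The table holds 27 RNA-seq libraries of Prx1-tdTomato cells without surface CD45 from muscle, periosteum and bone marrow of the mouse hindlimb. Cells of each tissue were sorted into P1, negative for CD105 and positive for CD200, P2, negative for both, and P3, positive for CD105 with variable CD200, with 3 replicates in each of the 9 groups. All groups shared 1 genotype, Prx1-CreER-GFP with the Ai14 tdTomato reporter on a Rag1-deficient background, and came from adult mice of both sexes harvested a few days after tamoxifen. The label therefore marks cells in which the Prx1 promoter drove Cre at the time of tamoxifen and their early progeny, and the hosts lacked mature lymphocytes. The comparisons ask how this gene family differs between Prx1 cells of the 3 tissues and between the 3 sorted subpopulations.

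The leucine-rich repeats form a curved surface that binds collagen fibrils and growth factors, and most members carry chondroitin, dermatan or keratan sulfate chains. Decorin (Dcn), lumican (Lum) and fibromodulin (Fmod) regulate the width and spacing of collagen fibrils, and decorin and biglycan (Bgn) also bind TGF-beta. Biglycan and fibromodulin are known from the niche of tendon stem cells, osteomodulin (Omd, also called osteoadherin) from mineralized bone matrix, chondroadherin (Chad) from cartilage, and keratocan (Kera) from the cornea and tendon. Asporin (Aspn) is found in periodontal ligament and cartilage, PRELP (Prelp) links basement membranes to the matrix beneath them, and osteoglycin (Ogn, also called mimecan) was first isolated from bone.

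Most of these genes lie in 3 chromosomal clusters of the mouse genome (GRCm38, GENCODE M21). Dcn, Lum and Kera lie with epiphycan (Epyc) in 203 kb of chromosome 10. Aspn, Omd and Ogn lie with Ecm2 in 120 kb of chromosome 13, and Prelp and Fmod with opticin (Optc) in 151 kb of chromosome 1. Bgn is on chromosome X and Chad on chromosome 11. The 250 bases before the start of 4 genes are given below because these genes mark the contrast between tissues: in P1 cells Fmod and Chad were higher in muscle and periosteum than in bone marrow, and the libraries of Bgn and Omd overlapped between bone marrow and periosteum. They were taken from RefSeq (GRCm38.p6) and are written 5′ to 3′ on the plus strand, which is the strand of all 4 genes, at chr1:134037004-134037253 for Fmod, chr11:94564797-94565046 for Chad, chrX:73483351-73483600 for Bgn and chr13:49582212-49582461 for Omd. Capitals mark a TATA box, TATAAA.
Fmod: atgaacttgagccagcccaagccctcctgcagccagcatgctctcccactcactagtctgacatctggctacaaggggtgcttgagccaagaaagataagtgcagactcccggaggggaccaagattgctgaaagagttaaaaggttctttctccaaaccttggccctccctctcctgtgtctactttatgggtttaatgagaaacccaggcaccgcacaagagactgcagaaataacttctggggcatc
Chad: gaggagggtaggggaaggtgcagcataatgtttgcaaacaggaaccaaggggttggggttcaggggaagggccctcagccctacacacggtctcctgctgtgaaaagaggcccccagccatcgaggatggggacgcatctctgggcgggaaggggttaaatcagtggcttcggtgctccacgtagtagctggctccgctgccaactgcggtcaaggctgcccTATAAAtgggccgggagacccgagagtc
Bgn: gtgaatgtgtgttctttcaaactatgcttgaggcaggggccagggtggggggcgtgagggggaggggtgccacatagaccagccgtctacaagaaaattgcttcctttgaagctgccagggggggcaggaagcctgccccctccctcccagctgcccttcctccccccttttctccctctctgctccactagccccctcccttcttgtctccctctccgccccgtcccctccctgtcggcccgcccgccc
Omd: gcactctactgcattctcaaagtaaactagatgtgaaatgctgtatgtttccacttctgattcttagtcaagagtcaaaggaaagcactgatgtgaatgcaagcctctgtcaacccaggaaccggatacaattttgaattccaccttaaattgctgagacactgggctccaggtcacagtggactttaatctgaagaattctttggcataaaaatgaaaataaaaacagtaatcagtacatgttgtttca
RefSeq held this window for 8 of the 10 genes, all but Dcn and Lum. Letters were searched on both strands. TATAAA was found in 3 of the 8 (Chad, Aspn and Ogn), and in 12.4% of 32851 promoter windows. It began 28 bases before the start in Chad, but 207 and 178 bases before it in Aspn and 229 and 227 in Ogn. The RUNX core TGTGGT was found in Ogn, and in 14.0% of windows. The AP-1 letters TGANTCA (6.75% of windows), the SMAD letters CAGACA (17.1%) and the SOX core ACAATG (10.7%) were found in none of the 8. A match is a description of the letters only.

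The normalized counts of a library summed to 8629958 to 26229450, and 12393 to 21673 genes were above 0. Eng, which encodes CD105, was higher in every P3 library than in any P1 or P2 library of the same tissue, with 4523 to 6067 in muscle P3, 3763 to 7328 in periosteum P3 and 774 to 1740 in bone marrow P3. Cd200 was higher in every P1 than in every P2 library of bone marrow (6315 to 7515 against 21.1 to 72.6) and of periosteum (2607 to 3972 against 7.24 to 52.8), but in muscle P1 (1025 to 3274) and P2 (10.3 to 1107) overlapped. Ptprc, which encodes CD45, stood at 312 to 829 in bone marrow P2, 66.5 to 321 in P3 and 61.8 to 252 in P1, against 5.69 to 14.8 in muscle P1. Prrx1, the gene of Prx1, stood at 1674 to 2413 in bone marrow P1, 69.0 to 170.3 in bone marrow P2 and 132 to 725 in bone marrow P3. The P2 libraries stood apart. The 8 myofibre markers summed to 1976000 to 2727000 in muscle P2, against 23690 to 43940 in muscle P1 and 1349 to 3201 in muscle P3. The 7 erythroid markers summed to 7963000 to 12620000 in bone marrow P2 and 3411000 to 9424000 in periosteum P2, against 118600 to 491600 and 15290 to 47200 in P1 of the same tissues. The 8 leukocyte markers summed to 12870 to 42860 in bone marrow P1, 31050 to 154900 in bone marrow P2 and 821 to 72160 in periosteum P2. The part of this RNA in the results was not tested, and in sorted bulk cells fewer cells of a type and less RNA per cell cannot be told apart. Calls whose group means include P2 are also given without those libraries, an alternative chosen after seeing the data. This leaves out P3 against P2, which cannot be made without them. The comparisons of P1 cells between tissues take their spread from all 9 groups, P2 included, and were not refitted without P2. Correlations use all 27 libraries.

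Together the 10 genes took 2.37% ± 0.389 (SD, n = 3) of all normalized counts in P1 of muscle, 2.33% ± 0.527 in P1 of periosteum and 0.842% ± 0.00171 in P1 of bone marrow. In P2 they took 0.502% ± 0.12, 0.741% ± 0.262 and 0.00365% ± 0.000846, and in P3 1.68% ± 0.0672, 1.46% ± 0.112 and 0.118% ± 0.0871, in the same order of tissues. In each tissue all 3 P1 libraries had a larger share than any P2 or P3 library.

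**Figure D1:**
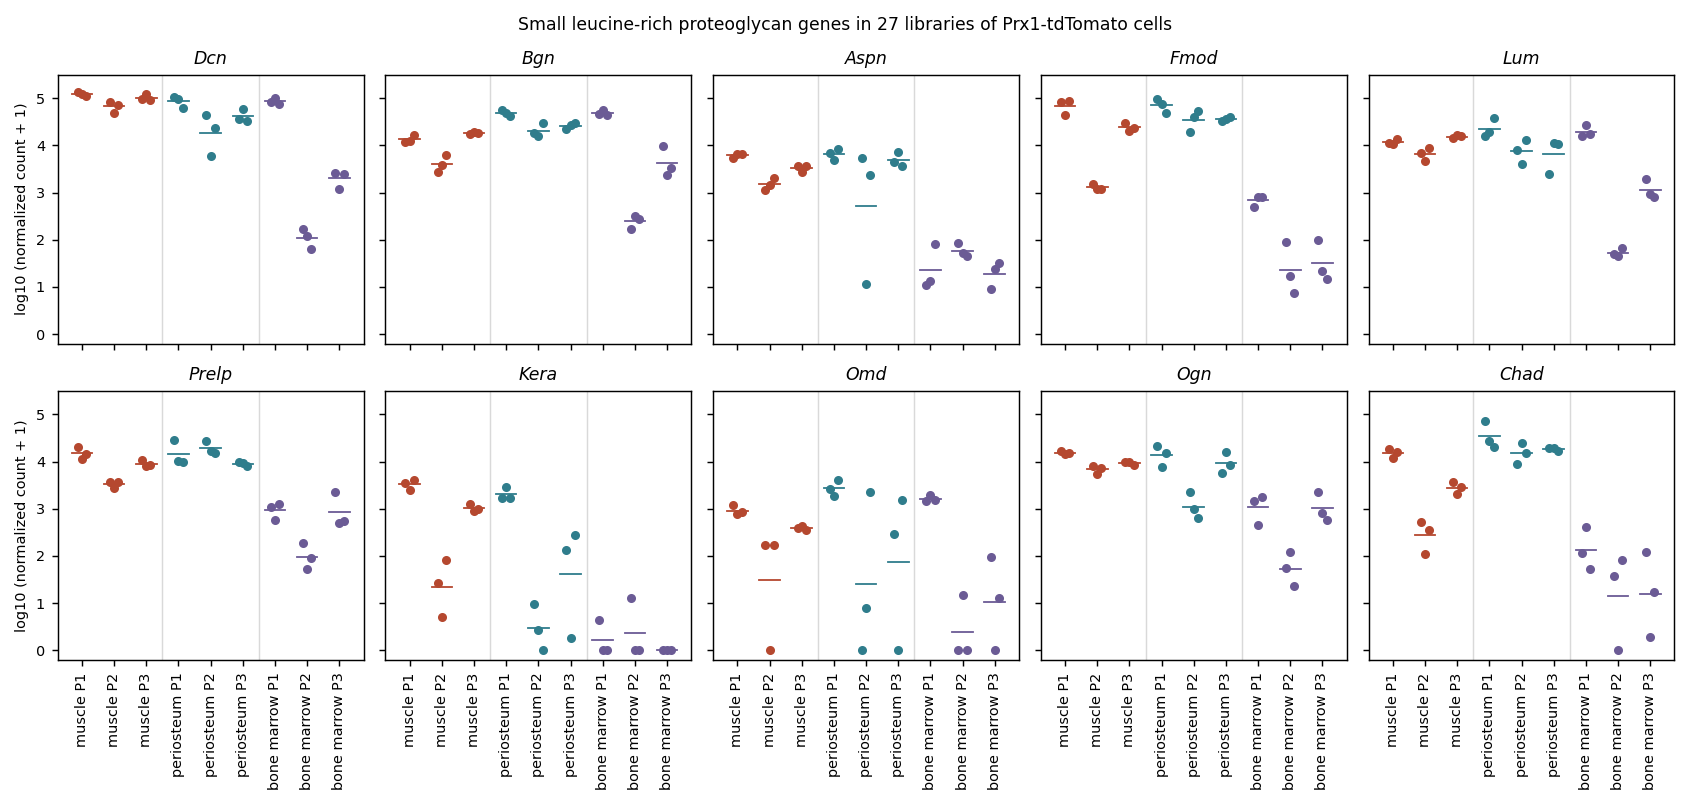
Normalized counts of the 10 genes in 27 libraries on a log10 (value + 1) scale, 1 panel for each gene, with points for libraries and a line at the mean of the log values of the 3 libraries of a group. The libraries of bone marrow P1 and periosteum P1 overlap for Dcn, Bgn, Lum and Omd, while Aspn, Fmod, Prelp, Kera, Ogn and Chad are lower in bone marrow P1 than in P1 of both other tissues.

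For Dcn, Bgn, Lum and Omd the P1 libraries of bone marrow and periosteum overlapped. Dcn, the decorin gene, had 135690, 122781 and 111743 normalized counts in muscle P1, 82702, 99236 and 74841 in bone marrow P1 and 106720, 95120 and 60752 in periosteum P1. Muscle P1 was above the other 2 P1 groups in every library, and bone marrow P1 and periosteum P1 overlapped. In bone marrow P3 Dcn had 2564, 1218 and 2510, and in bone marrow P2 164, 117 and 63.8. Bone marrow P3 and P2 were the lowest of the 9 groups and did not overlap each other or any other group, while neighbours among the upper 7 groups overlapped.

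Bgn, the biglycan gene, had 46597, 54996 and 43050 in bone marrow P1, 56188, 47819 and 41335 in periosteum P1 and 11858, 12615 and 16562 in muscle P1. Muscle P1 lay below both without overlap, and also below muscle P3, which had 17426, 19244 and 18006. Bone marrow P3 had 9470, 2346 and 3394, and bone marrow P2 was the lowest group with 166, 315 and 275.

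Lum, the lumican gene, had 15985, 26588 and 17798 in bone marrow P1, 15826, 19320 and 37956 in periosteum P1 and 11347, 10655 and 13395 in muscle P1. The first 2 overlapped, and muscle P1 lay below both in every library. The normalized counts summed to 11199923 to 12277313 in muscle P1 and 16747918 to 22027956 in bone marrow P1. The gap between these groups therefore narrows when totals are made equal, for Lum and for Omd below. Bone marrow P3 had 1978, 951 and 796 and bone marrow P2 48.0, 44.8 and 67.3, below all other groups.

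Omd, the osteomodulin gene, had 1448, 1937 and 1554 in bone marrow P1, 2650, 1863 and 4000 in periosteum P1 and 1198, 756 and 834 in muscle P1. Periosteum P1 and bone marrow P1 overlapped, and muscle P1 lay below both. The replicates of Omd were far apart in periosteum P2 (0, 6.84 and 2250) and periosteum P3 (285, 0 and 1498) and close in muscle P3 (392, 431 and 357). It was listed at 0 in 6 of the 27 libraries.

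Fmod, Chad and Prelp were higher in P1 cells of muscle and periosteum than in those of bone marrow. Fmod, the fibromodulin gene, had 94509, 73525 and 49053 in periosteum P1, 84576, 43268 and 85692 in muscle P1 and 482, 819 and 807 in bone marrow P1. The lowest group outside bone marrow was muscle P2, with 1520, 1193 and 1180, and all 18 muscle and periosteum libraries lay above all 9 bone marrow libraries. In periosteum Fmod stayed high outside P1, with 19604, 39939 and 53752 in P2 and 32987, 35947 and 39232 in P3.

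Chad, the chondroadherin gene, had 71138, 27736 and 20236 in periosteum P1, 18049, 11802 and 16072 in muscle P1 and 115, 402 and 51.1 in bone marrow P1. The 3 groups did not overlap. Periosteum P2, with 8996, 24239 and 15322, overlapped periosteum P1, whereas muscle P2, with 531, 108 and 347, lay near bone marrow P1.

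Prelp had 20153, 11298 and 14673 in muscle P1, 1096, 572 and 1250 in bone marrow P1 and 27936, 10235 and 9889 in periosteum P1. Muscle P1 and periosteum P1 overlapped, and all 18 libraries of muscle and periosteum lay above those of bone marrow. Its highest group was periosteum P2, with 26992, 16752 and 14936, which overlapped periosteum P1 and lay above periosteum P3. Prelp shares 350 exon bases, 9.68% of its exons, with Gm15851 on the other strand, and the library kit does not mark the strand, so reads from both could be counted together.

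Ogn and Aspn had their lowest values in bone marrow, and Kera in bone marrow and periosteum P2. Ogn, the osteoglycin gene, had 16939, 14106 and 15230 in muscle P1, 1490, 459.7 and 1810 in bone marrow P1 and 20872, 7815 and 14975 in periosteum P1. Bone marrow P3, with 2298, 806 and 562, overlapped bone marrow P1, and bone marrow P2 lay below with 54.0, 120.4 and 22.5. Periosteum P2, with 2250, 974 and 625, overlapped bone marrow P1 as well.

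Aspn, the asporin gene, had 7033, 4950 and 8560 in periosteum P1, 5518, 6475 and 6577 in muscle P1 and 10.2, 12.4 and 78.6 in bone marrow P1. Its highest value in any bone marrow library was 83.7. Of the 18 muscle and periosteum libraries 17 lay above that, and the exception was the second replicate of periosteum P2, a group with 5379, 10.3 and 2390.

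Kera, the keratocan gene, had 3580, 2437 and 4131 in muscle P1, 1708, 2911 and 1704 in periosteum P1 and 1260, 879 and 979 in muscle P3. Muscle P1 and periosteum P1 overlapped and lay above muscle P3. Kera had 134, 0.869 and 283 in periosteum P3, and in bone marrow it was listed at 0 in 7 of 9 libraries, the other two having 3.38 (P1) and 11.9 (P2). Periosteum P2, with 8.37, 1.72 and 0, overlapped bone marrow, and muscle P2 had 25.9, 3.98 and 79.3.

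Neighbours on a chromosome could stand far apart in level. Levels of different genes are compared here per kilobase of exon. In bone marrow P1, Dcn had 14661 ± 2133 (SD, n = 3) normalized counts per kilobase and Lum 8220 ± 2317, and Kera, next to Lum, had 0.493 ± 0.855. On chromosome 13, Omd had 732 ± 114 per kilobase in bone marrow P1, Ogn 488 ± 275 and Aspn 14.3 ± 16.5. In muscle P1 Omd was the lowest of these 3 neighbours with 413 ± 105, against 6011 ± 556 for Ogn and 2630 ± 248 for Aspn.

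P1 cells of the 3 tissues were compared first, since the P1 libraries had lower sums of the myofibre markers in muscle and of the erythroid markers in periosteum and bone marrow than the P2 libraries. A gene was called at an adjusted p under 0.05 and a change over 1.5 on the log2(value + 1) scale, by limma with Benjamini-Hochberg adjustment over 18439 genes, and all folds are on that scale. Compared with bone marrow P1, 6 of the genes were higher in periosteum P1 and none lower, where 4.87% of all genes were called and 1.91% were called higher. Kera (10.28 ± 1.44 SE, adjusted p = 7.02e-05), Aspn (8.19 ± 1.29 SE, adjusted p = 0.000266) and Chad (7.99 ± 1.23 SE, adjusted p = 0.000223) differed the most. Fmod was 102-fold higher (6.67 ± 0.646 SE, adjusted p = 3.52e-07), Prelp 15.3-fold (3.94 ± 0.491 SE, adjusted p = 1.43e-05) and Ogn 12.5-fold (3.65 ± 0.597 SE, adjusted p = 4e-04). The size for Kera depends on the 1 added to each value, as 2 of its 3 bone marrow P1 libraries were listed at 0.

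The other 4 genes did not pass between periosteum P1 and bone marrow P1. The difference was 0.00 for Dcn (95% interval -0.956 to 0.960), 0.00 for Bgn (-0.738 to 0.744) and 0.21 for Lum (-0.792 to 1.20), so these intervals hold no value past 1.5 in either direction. For Omd it was 0.73 with an interval of -4.27 to 5.73, too wide to bound the difference in that way.

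The same 6 genes were higher in muscle P1 than in bone marrow P1, and Bgn was lower, where 8.34% of all genes were called, 5.4% higher and 2.94% lower. This comparison uses the same bone marrow libraries as the one before. Kera (10.98), Aspn (8.08), Chad (6.81), Fmod (6.63), Prelp (4.02) and Ogn (3.84) had adjusted p from 1.77e-07 for Fmod to 0.000528 for Chad. Bgn differed by -1.83 ± 0.359 SE (adjusted p = 0.00126), and with all libraries rescaled to the same total by -1.15 (adjusted p = 0.0547), no longer called. Dcn (0.53, 95% interval -0.425 to 1.49), Lum (-0.74, -1.74 to 0.257) and Omd (-0.84, -5.84 to 4.16) did not pass. The interval for Omd again holds the spread of groups not compared here, and its muscle P1 and bone marrow P1 libraries did not overlap. The median over the 10 genes was 3.93 for muscle and 3.79 for periosteum, beside 0.06 and -0.27 over all genes tested.

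Between muscle P1 and periosteum P1 the only gene called was Bgn, lower in muscle (-1.83 ± 0.359 SE, adjusted p = 0.0029), where 4.9% of all genes were called and 0.559% lower. The intervals for Fmod (-0.04, -1.37 to 1.29), Prelp (0.08, -0.933 to 1.09), Ogn (0.19, -1.04 to 1.42) and Dcn (0.53, -0.427 to 1.49) hold no value past 1.5. The sign for Fmod turned under rescaling (0.16) and quantile normalization (0.02), and for Prelp under quantile normalization (-0.0045). The intervals for Aspn (-2.78 to 2.55), Kera (-2.27 to 3.66), Omd (-6.57 to 3.43), Chad (-3.72 to 1.36) and Lum (-1.94 to 0.0507) do, so this fit does not bound larger differences there. Its pooled spread includes groups not compared here. The SD of log2(value + 1) for Aspn was 0.14 in muscle P1 and 0.4 in periosteum P1, against 4.83 in periosteum P2. For Kera it was 0.394 and 0.445, against 3.91 in periosteum P3.

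**Figure D2:**
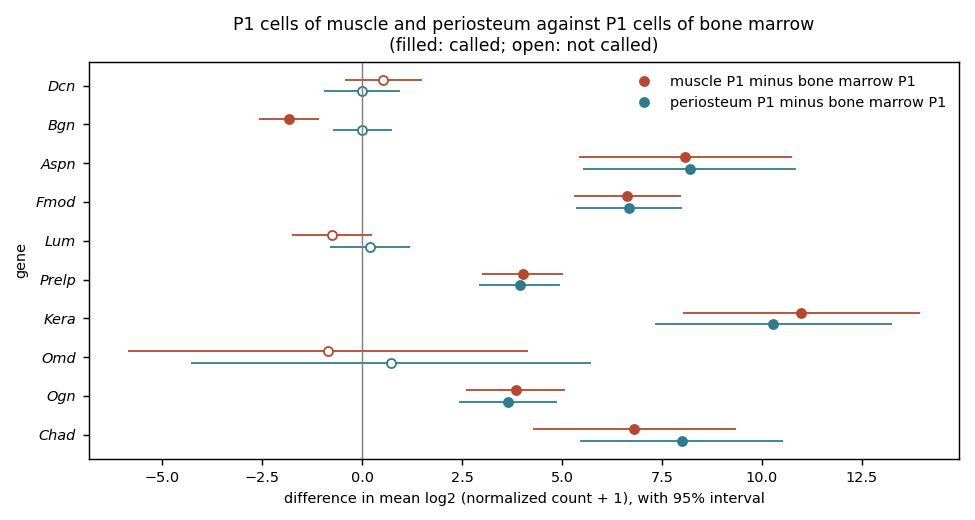
Difference in mean log2 (normalized count + 1) of P1 cells, muscle minus bone marrow and periosteum minus bone marrow, for each gene, with 95% intervals from limma (3 libraries a group, filled symbols called, open symbols not called). The intervals use a spread pooled over all 9 groups. Aspn, Fmod, Prelp, Kera, Ogn and Chad lie between 3.65 and 10.98 in both tissues, the intervals of Dcn, Lum and Omd hold 0 in both, and Bgn lies at 0.00 for periosteum and -1.83 for muscle.

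Marker levels of other cell types also differed between the P1 groups, some in the same direction as these genes and some in the other. The 4 tenocyte markers (Thbs4, Tnmd, Mkx and Scx) summed to 25250 to 45690 in muscle P1 and 22500 to 51980 in periosteum P1 against 2001 to 5955 in bone marrow P1, and all 4 were at 10 or more in every library of the 3 groups. Tnmd, tenomodulin, had means of 4854 ± 1003, 4665 ± 1534 and 26.2 ± 12.6 (SD, n = 3) in these groups. The 9 osteoblast markers ran the other way, with 3035000 to 5135000 in bone marrow P1, 743700 to 1454000 in periosteum P1 and 83910 to 148600 in muscle P1. The 8 chondrocyte markers summed to 170900 to 300000, 109600 to 490900 and 11200 to 25290 in the same order, and the 6 markers of fibro-adipogenic progenitors to 3226 to 4539, 11580 to 36560 and 52120 to 83820. In that order, the 6 mural cell markers summed to 1560 to 3439, 4771 to 5362 and 39530 to 87560, the 6 endothelial markers to 95.7 to 159.6, 341 to 1858 and 4113 to 12320, and the 8 leukocyte markers to 12870 to 42860, 31.1 to 173.6 and 418 to 732.4. Erythroid markers summed to 118600 to 491600, 15290 to 47200 and 2832 to 11990. Schwann cell markers summed to 322 to 481, 1168 to 1325 and 1704 to 3001. For myofibre markers the sums were 18.7 to 106.4, 34.9 to 235.3 and 23690 to 43940. Those of the 6 satellite cell markers were 4431 to 6418, 211 to 1247 and 3719 to 4641, though 3 of these were at 0 in every bone marrow P1 library. The chondrocyte sums do not show how most of those 8 genes moved. At 10 or more in all 3 libraries were 6 of them in bone marrow P1 and 8 in periosteum P1 and muscle P1. Averaged over P1 and P3 without P2, 6 were called higher and 0 lower for periosteum against bone marrow (12.2% of all genes called). Their median was 6.08, beside -0.35 over all genes. For muscle against bone marrow, averaged in the same way, 4 were higher and 2 lower (16.3% of all genes called). There the median was 2.70, beside 0.18 over all genes. The part of the cell types named here in the results was not tested.

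Within bone marrow 8 of the genes were higher in P1 than in the mean of P2 and P3 and none lower, where 18.9% of all genes were called and 7.47% higher. Omd (8.32 ± 2.10 SE, adjusted p = 0.00621), Dcn (7.52 ± 0.402 SE, adjusted p = 3.42e-12), Lum (6.31 ± 0.418 SE, adjusted p = 1.45e-10), Bgn (5.56 ± 0.311 SE, adjusted p = 6.38e-12) and Fmod (4.68 ± 0.560 SE, adjusted p = 1.59e-06) differed the most, and for these 5 every P1 library lay above every P2 and P3 library, as for 12.8% of all genes. Chad (3.15, adjusted p = 0.0379), Ogn (2.20, adjusted p = 0.00362) and Prelp (1.68, adjusted p = 0.0063) also passed, though their libraries overlapped. Chad was not called with a pseudocount of 0.1 (3.87, adjusted p = 0.0636), without the filter (adjusted p = 0.0563), with rescaled totals (2.65, adjusted p = 0.0774) or without a trended prior (adjusted p = 0.0544). Prelp was not called with rescaled totals (1.26, adjusted p = 0.0729). Aspn (-0.54) and Kera (0.09), both low in all 9 libraries, did not pass. Sums of osteoblast and chondrocyte markers moved with these differences. The osteoblast markers summed to 3035000 to 5135000 in bone marrow P1, 39140 to 108400 in P3 and 2557 to 7894 in P2, and the chondrocyte markers to 170900 to 300000, 1178 to 10160 and 313 to 1314. Their part in the result was not tested.

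With the bone marrow P2 libraries left out, P1 was set against P3 alone and 5 genes were called, where 9.64% of all genes were. These were Omd (7.26), Dcn (5.42), Fmod (4.44), Lum (4.10) and Bgn (3.51). Chad (3.08, adjusted p = 0.0698), Ogn (0.08, adjusted p = 0.998) and Prelp (0.11, adjusted p = 0.981) were not called. The call for Chad was also lost without the first replicate of P1 (3.26) or the second of P1 (2.36), P2 (2.19) or P3 (2.40), or the third of P3 (3.18). That for Prelp was lost without the third replicate of P1 (1.46) or the second of P2 (1.47) or P3 (1.495).

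Within periosteum 4 of the genes were higher in P1, where 9.15% of all genes were called and 4.32% higher. They were Kera (7.53 ± 1.24 SE, adjusted p = 0.000241), Ogn (2.07 ± 0.517 SE, adjusted p = 0.0114), Lum (1.68 ± 0.418 SE, adjusted p = 0.0113) and Dcn (1.63 ± 0.402 SE, adjusted p = 0.0104). Bgn (1.06, adjusted p = 0.0298) passed the p threshold but not the size, and Omd (5.93, adjusted p = 0.0757) the size only. Against P3 alone, Kera (5.62) and Lum (1.76) were called, where 5.88% of all genes were, and Ogn (0.54) and Dcn (1.04) were not.

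Single libraries also decided calls in periosteum. Dcn fell under the threshold without the first replicate of P1 (1.47) or the second of P2 (1.22), and Ogn without the first of P1 (1.76, adjusted p = 0.0855). Lum did so without the third of P1 (1.31), the second of P2 (1.45) or the first of P3 (1.32). Omd was called without the third of P2 (7.54) or the third of P3 (7.01). Without the first of P1 or the second of P2 the count was 2.

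Within muscle Fmod was the one gene called in P1 (3.60 ± 0.560 SE, adjusted p = 0.000627), where 1.05% of all genes were called and 0.591% higher. Kera (4.45, adjusted p = 0.0832) and Chad (4.11, adjusted p = 0.0563) did not pass. For 7 of the 10 genes (Fmod, Ogn, Aspn, Omd, Prelp, Kera and Chad) all P1 libraries lay above all P2 and P3 libraries, as for 5.14% of all genes. Against P3 alone Fmod was at 1.49 (adjusted p = 0.246) and no gene of the family was called, where 1.33% of all genes were. Bgn (-0.43) and Lum (-0.39) were then negative, and muscle P3 lay above muscle P1 without overlap for both.

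**Figure D3:**
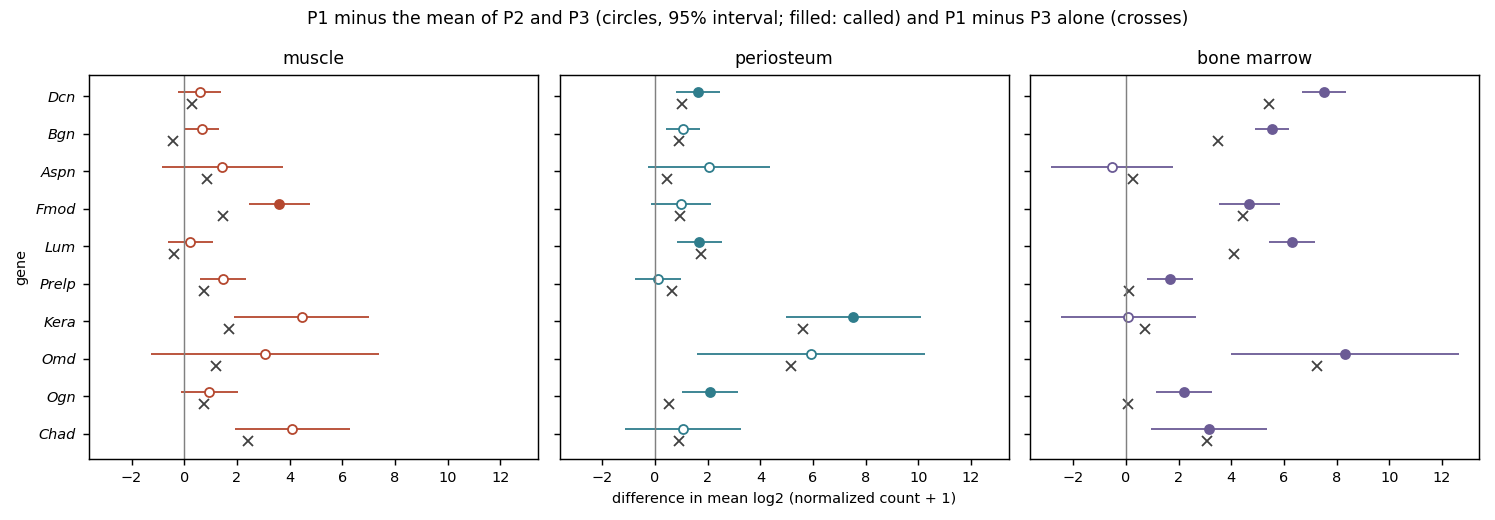
Difference in mean log2 (normalized count + 1) between P1 and the mean of P2 and P3 in each tissue (circles with 95% intervals, filled where called), and between P1 and P3 alone (crosses). In bone marrow the crosses of Omd, Dcn, Fmod, Lum and Bgn lie at 3.51 or more, and those of Ogn and Prelp at 0.08 and 0.11.

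Over all 3 tissues together 8 genes were higher in P1, where 14.5% of all genes were called and 6.87% higher. The largest differences were those of Omd (5.77), Kera (4.03) and Dcn (3.24), and Aspn (0.99, adjusted p = 0.284) and Prelp (1.09, adjusted p = 0.00255) were not called. Without P2, Bgn (1.32) and Ogn (0.46) were no longer called and the other 6 were, where 7.99% of all genes were.

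The difference between P1 and the other subpopulations was itself compared between tissues. It was smaller in muscle than in bone marrow for Dcn (-6.94 ± 0.568 SE), Lum (-6.08 ± 0.592 SE) and Bgn (-4.90 ± 0.439 SE), where 7.41% of all genes were called and 3.24% in that direction. It was smaller in periosteum than in bone marrow for Dcn (-5.89), Lum (-4.63), Bgn (-4.50) and Fmod (-3.70) and larger for Kera (7.43), where 2.8% were called, 1.55% smaller and 1.25% larger. Between muscle and periosteum limma called none of the 10 (2.44% of all genes), and 3 had an unadjusted p under 0.05, Fmod (0.00297), Lum (0.0221) and Prelp (0.0351). Fmod was called there without the first replicate of periosteum P2 (2.83). Without the P2 libraries, Dcn (-5.14), Lum (-4.49), Bgn (-3.93) and Fmod (-2.95) were called for muscle against bone marrow (4.45% of all genes), and Dcn (-4.38), Fmod (-3.48) and Bgn (-2.62) for periosteum (2.11%). Lum (-2.34) and Kera (4.91) were then not called for periosteum, and Kera was also lost without the second or the third replicate of bone marrow P1 (adjusted p = 0.0774 and 0.064) and with a pseudocount of 0.1 (7.81, adjusted p = 0.113). Prelp (-1.57) was called there without the first replicate of bone marrow P3 (-1.91).

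P3 was set against P2 in each tissue. In bone marrow 5 genes were higher in P3, Lum (4.42), Ogn (4.23), Dcn (4.20), Bgn (4.11) and Prelp (3.15), with adjusted p from 1.04e-07 to 8.58e-05, where 20% of all genes were called and 5.38% higher. In muscle Kera (5.54, adjusted p = 0.0111), Fmod (4.23, adjusted p = 6.22e-05) and Bgn (2.18, adjusted p = 0.000153) were higher in P3, where 11.1% were called and 5.6% higher. Kera lost its call without the second replicate of muscle P2 (4.47, adjusted p = 0.0774). In periosteum Ogn was the one gene called (3.06, adjusted p = 0.00108), where 17.1% were called and 9.33% higher. There, Aspn was added without the first (4.90) or the third (4.32) replicate of P2, Dcn without the first of P2 (1.82), and Kera without the first of P2 (4.66) or the second of P3 (6.06).

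Averaged over P1, P2 and P3, 9 genes were higher in periosteum than in bone marrow, all but Omd, where 20.8% of all genes were called and 4.01% higher. Chad (9.40), Fmod (9.14) and Aspn (6.46) differed the most. For 3 genes (Fmod, Chad and Prelp) all periosteum libraries lay above all bone marrow libraries, as for 0.645% of all genes. In muscle against bone marrow 8 were higher (21.7% called, 10.9% higher), with Bgn (1.44) under the size threshold and Omd (2.67, adjusted p = 0.17) past the size but not the p threshold. Bgn was called with rescaled totals (1.64, adjusted p = 3.33e-06), without the second replicate of bone marrow P2 (1.501), without the first of bone marrow P3 (1.63) and without the first of muscle P2 (1.53). For 4 genes (Fmod, Aspn, Prelp and Ogn) the libraries did not overlap, as for 2.69% of all genes. Without P2 the counts were 7 for periosteum (12.2% of all genes called) and 8 for muscle (16.3%), as Bgn (1.31) and Lum (1.38) fell under the size threshold for periosteum.

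Muscle against periosteum, averaged in the same way, gave 4 calls where 20.4% of all genes were called, 17.2% higher in muscle and 3.19% lower. Kera was higher in muscle (2.75, adjusted p = 0.0181), and Bgn (-1.56, adjusted p = 7.71e-06), Fmod (-1.79, adjusted p = 0.00121) and Chad (-3.23, adjusted p = 0.00193) were lower. None of the 10 was called by limma without the P2 libraries, where 12.8% of all genes were. Kera was at 2.66 (adjusted p = 0.0612) in that fit, Bgn at -1.17 (adjusted p = 0.00393), Fmod at -0.30 and Chad at -1.95 (adjusted p = 0.0821). Bgn also fell under the size threshold without the first replicate of muscle P2 or the third of periosteum P2 (-1.47 in both cases).

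The make-up of the family differed between tissues. Per kilobase of exon, Dcn took 29.2% ± 5.21 (SD, n = 3) of the summed level of the 10 genes in muscle P1, Fmod 28.6% ± 6.14 and Chad 12.3% ± 0.669. In periosteum P1 Fmod took 23.4% ± 3.81, Chad 23.4% ± 9.13, Dcn 16.2% ± 3.40 and Lum 11.9% ± 8.08. In bone marrow P1 Dcn took 45.0% ± 1.79, Lum 24.9% ± 3.23, Bgn 24.3% ± 1.02 and Omd 2.25% ± 0.114, while Fmod took 0.654% ± 0.176 and Chad 0.317% ± 0.270. In muscle P2 Dcn alone took 58.0% ± 3.93. The shares depend on the length used, and with the longest transcript in place of all exons Bgn took 39.1% and Dcn 39.4% in bone marrow P1, as the exons of Bgn cover 6099 bases and its longest transcript 2666.

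**Figure D4:**
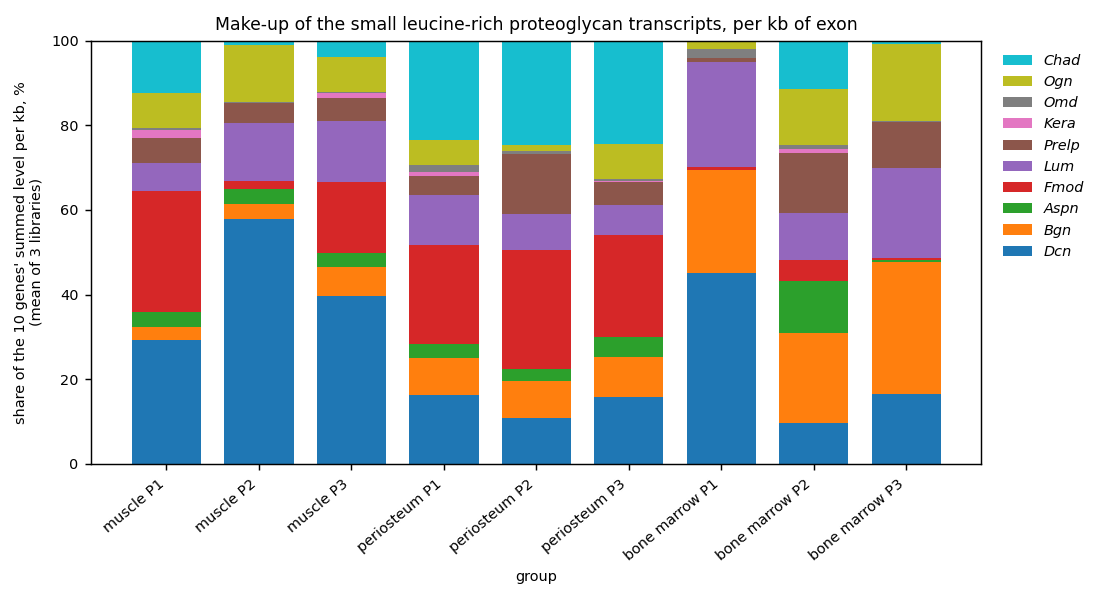
Share of each gene in the summed level per kilobase of the 10 genes, in percent, as the mean of 3 libraries in each of the 9 groups. Dcn (45.0% ± 1.79), Lum (24.9% ± 3.23) and Bgn (24.3% ± 1.02) fill most of the bone marrow P1 bar, and Fmod and Chad take a large part of every periosteum bar.

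Over the 27 libraries Dcn and Lum (Pearson r = 0.95), Bgn and Lum (0.924) and Dcn and Bgn (0.839) varied together, and so did Fmod and Chad (0.94), Fmod and Prelp (0.929) and Prelp and Chad (0.895). Aspn and Omd, neighbours on chromosome 13, had the lowest r (0.311). These values describe log2(value + 1) over libraries that share 9 groups and the composition of P2. The gene most like both Dcn (0.979) and Lum (0.957) was Mmp2, a gelatinase, followed by Id3 and Anxa6 for Dcn and by Sdc2 and Cyr61 for Lum. Bgn was most like Ppic (0.969), Cst3 and Sparc, the last a collagen-binding protein of bone. Fmod was most like S100a10 (0.949), Chad and Fosb. Chad was most like 1500015O10Rik (0.946), Fmod and Comp, a matrix protein of cartilage and tendon. Prelp was most like Mgp (0.954), the matrix Gla protein, S100a10 and Emp1. Ogn was closest to Nid1 (0.94), C1ra and Loxl1, Aspn to Cilp (0.958), Nov and Itgbl1, Kera to Ccdc3 (0.887), Uts2r and Acta2, and Omd to Nab2 (0.841), Copa and Naglu.

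**Figure D5:**
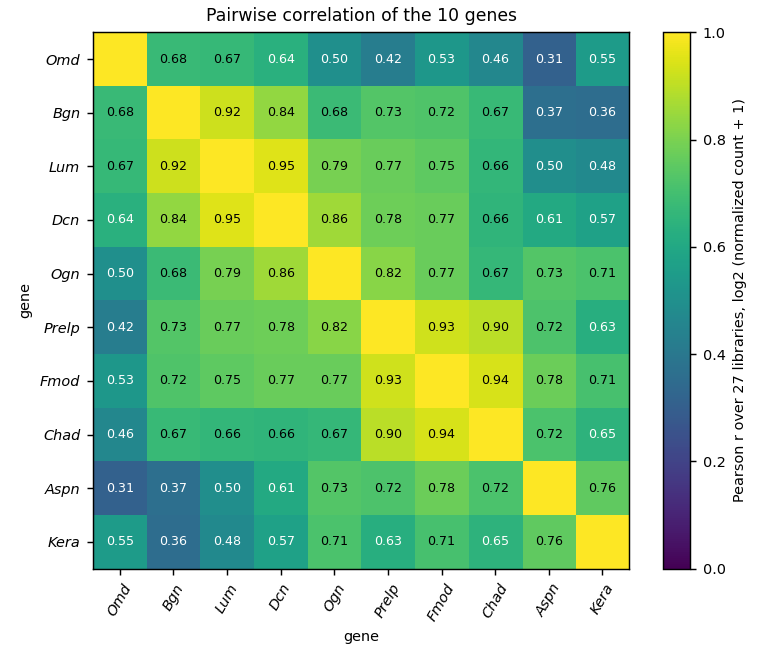
Pearson r of log2 (normalized count + 1) between each pair of the 10 genes over 27 libraries. The highest values are those of Dcn with Lum (0.95) and Fmod with Chad (0.94), and the highest r of Omd with any other of the 10 genes is 0.676, with Bgn.

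Another 8 genes of the family were measured, and in P1 cells 2 of them, Epyc and Ecm2, were higher in both muscle and periosteum than in bone marrow. In these comparisons 8.34% and 4.87% of all genes were called, and 5.4% and 1.91% higher. Epyc, epiphycan of growth cartilage, had 3059, 8157 and 5112 in periosteum P2 and 409, 2809 and 425 in periosteum P1, and was listed at 0 in all 3 libraries of bone marrow P1. Ecm2, next to Aspn on chromosome 13, had 1990, 1599 and 2149 in muscle P1 and 76.4, 85.0 and 182 in bone marrow P1 (4.15 ± 0.572 SE, adjusted p = 2.22e-05). Epyc (-5.28, adjusted p = 0.00453) and Chadl (-6.62, adjusted p = 0.00314) were lower in P3 than in P2 of periosteum, where 17.1% of all genes were called. In periosteum P2 the chondrocyte markers summed to 308600 to 763800, against 23260 to 112800 in P3. Podn, podocan, was highest in muscle P3, with 2817, 3599 and 3253. It was higher in muscle than in periosteum (3.04, adjusted p = 0.00199), where 20.4% of all genes were called and 17.2% higher. Podnl1 was lower in muscle than in bone marrow (-3.80, adjusted p = 0.00884), where 21.7% of all genes were called. Tsku (3.64, adjusted p = 0.00516), Podnl1 (2.60, adjusted p = 0.0466) and Chadl (2.52, adjusted p = 0.0158) were higher in P1 over all tissues, where 14.5% of all genes were called and 6.87% higher. Without the P2 libraries Podn (2.73, adjusted p = 0.00886), Podnl1 in muscle against bone marrow (-3.65, adjusted p = 0.0133), Tsku (2.79, adjusted p = 0.0355) and Chadl (3.32, adjusted p = 0.0139) were still called, and Podnl1 in P1 over all tissues (0.99, adjusted p = 0.489) was not. In these fits 12.8% of all genes were called for muscle against periosteum, 16.3% for muscle against bone marrow and 7.99% for P1 over all tissues. Nyx reached its highest group mean, 210.0, in bone marrow P2, and Optc had none above 48.4.

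Of 22 enzymes that build chondroitin and dermatan sulfate chains, 1 was higher and 0 lower in P1 cells of periosteum than of bone marrow, where 4.87% of all genes were called. The median difference was -0.31 beside -0.27 over all genes tested. For muscle P1 the counts were 1 and 1, where 8.34% of all genes were called, and the median -0.65 beside 0.06. The counts for both tissues lie near the share over all genes. Within bone marrow 7 of the 22 were higher in P1 and 1 lower (18.9% of all genes called), with a median of 2.02 beside -0.39. Against P3 alone 8 were higher and 0 lower (9.64% of all genes called), with a median of 1.70. Chpf2, a subunit of chondroitin polymerase, had means of 3119 ± 953 in bone marrow P1, 1266 ± 238 in periosteum P1 and 653 ± 199.9 in muscle P1. Dse, the epimerase that makes dermatan sulfate, had 779 ± 136, 1039 ± 26.6 and 1197 ± 259.5 in that order. Of the 7 keratan sulfate enzymes tested, Chst1, a sulfotransferase of keratan sulfate, was higher in P1 cells of muscle (8.05, adjusted p = 7.25e-05) and periosteum (4.34, adjusted p = 0.0374) than of bone marrow, and no other was called. The shares of all genes called were 8.34% and 4.87%.

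Of 9 genes of fibrillar collagens, the main ligands of the family, 1 was higher and 7 lower in muscle P1 than in bone marrow P1, with a median of -4.63 beside 0.06 over all genes, of which 8.34% were called. For periosteum P1 the counts were 1 and 2 and the median -1.40 beside -0.27, with 4.87% of all genes called. The gene that was higher in both was Col3a1 of type III collagen, with means of 5694 ± 2785 in bone marrow P1, 70207 ± 34517 in periosteum P1 and 96809 ± 6755 in muscle P1. Col1a1 of type I collagen had 2917820 ± 1040480, 769474 ± 245157 and 98729 ± 23738 in that order. Within bone marrow all 9 were higher in P1 than in P2 and P3, where 18.9% of all genes were called and 7.47% higher, with a median of 7.76 beside -0.39. Against P3 alone 8 were, with a median of 6.11 (9.64% of all genes called). Of 10 other matrix proteoglycans, 4 were higher in P1 cells of muscle and 3 in those of periosteum than in those of bone marrow, and none lower, with medians of 2.95 and 1.04. Over all genes 5.4% and 1.91% were called higher, with medians of 0.06 and -0.27.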

How the data were processed

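Cells were sorted by the authors, cDNA was made with SMART-Seq v4 and libraries with Nextera XT, which does not mark the strand. The authors trimmed reads with Trim Galore, aligned them with STAR and normalized with DESeq2. The genome build, annotation and counting tool are not given in the sources used here. The deposited values are normalized counts, treated as a signal, since whole reads could not be recovered: between 20.7% and 90.5% of a library's low values lay within 0.05 of a whole step. The depth in reads is thus unknown, and no counting interval is given. Of 30154 entries, 4 without a gene were left out. A gene entered the tests when 3 or more libraries reached 10, which left 18439 genes and all 10 members, and log2(value + 1) was fitted with limma 3.58.1 (R 4.3.3) as 9 group means with a trended prior, with adjustment over all genes tested. Calls used an adjusted p under 0.05 and a log2 difference over 1.5, after the study's methods. On simulated data for P1 cells of muscle against periosteum (18439 genes), 48 of 200 genes changed by a log2 of 3 were recovered, all in the right direction. Another 3 genes were called there. Levels per kilobase used merged exons of GENCODE M21. Figures were drawn with matplotlib 3.10.9. Named genes were all members, the 3 genes most correlated with each, all further family genes and up to 4 genes with the highest mean of each other list. The genes of the sorted proteins, and the P2 libraries left out, were added after seeing the data. The members and the lists were chosen with earlier results of these data known. The labels do not say which animal gave which library, so p-values treat the libraries as independent. They rest on the spread between libraries of a group, pooled for each gene over all 9 groups. Alternatives were another pseudocount (0.1 or 5), filter (none, or a mean of at least 50), scaling (equal totals, quantiles), prior (no trend), a replicate block and leaving out each library.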

Additional observations from a re-analysis of the deposited data

Results flagged for a closer look

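The difference between P1 and the mean of P2 and P3 differed between tissues for 5 genes, by the interaction term in limma. For muscle minus bone marrow it was -6.94 ± 0.568 SE for Dcn (adjusted p = 3.94e-08), -4.90 ± 0.439 SE for Bgn (adjusted p = 1.57e-07) and -6.08 ± 0.592 SE for Lum (adjusted p = 4.45e-07). For periosteum minus bone marrow it was -5.89 ± 0.568 SE for Dcn (adjusted p = 1.13e-06), -4.50 ± 0.439 SE for Bgn (adjusted p = 1.13e-06), -4.63 ± 0.592 SE for Lum (adjusted p = 4.32e-05), -3.70 ± 0.791 SE for Fmod (adjusted p = 0.0107) and 7.43 ± 1.76 SE for Kera (adjusted p = 0.0219). Both sets share the bone marrow libraries. Kera was listed at 0 in 7 of the 9 bone marrow libraries. With the P2 libraries left out, limma no longer called Lum (-2.34, adjusted p = 0.0989) or Kera (4.91, adjusted p = 0.207) for periosteum minus bone marrow.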

How the results depend on the processing

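The calls in P1 cells of periosteum against bone marrow (6 genes) and muscle against periosteum (1 gene) were as reported under all alternatives run, and those of muscle against bone marrow (7 genes) under all but rescaling, which took Bgn under the threshold. The number of members called in P1 against P2 and P3 of muscle went from 1 to 3 with a pseudocount of 5, to 2 with rescaled totals, to 3 with quantile normalization, to 2 with the replicate block and to 0 without the P2 libraries. Over all 18439 genes the calls went from 193 to 305, 226, 272, 200 and 245 in that order. For P3 against P2 the number of members went from 1 to 2, 4 and 2 in periosteum (pseudocount of 5, rescaled, quantile) and from 3 to 6 and 7 in muscle (rescaled, quantile). Over all genes these calls went from 3157 to 3414, 3664 and 2967 in periosteum and from 2055 to 2593 and 2264 in muscle. For P1 against P2 and P3 of periosteum the number of members went from 4 to 2 under quantile normalization and to 2 without P2, for bone marrow from 8 to 6 under rescaling, 7 with a pseudocount of 0.1, without the filter and without the trend, and 5 without P2, for muscle against periosteum from 4 to 0 without P2, for the P1 change of periosteum against bone marrow from 5 to 3 without P2, and for that of muscle against periosteum from 0 to 1 with a pseudocount of 5. The calls over all genes went from 1687 to 1548 and 1084 for P1 of periosteum. For P1 of bone marrow they went from 3491 to 3396, 2971, 3591 (of 27695 tested), 3672 and 1778, in the order given. Those of muscle against periosteum went from 3767 to 2365. For the 2 P1 changes they went from 516 to 389 and from 450 to 562. Leaving out 1 library gave 0 to 1 members called for the last, 2 to 5 for P1 of periosteum, 1 to 4 for P3 against P2 of periosteum, and 6 to 8 for P1 of bone marrow.

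Single calls lost beside those in the report were Dcn (1.51, adjusted p = 0.118) and Ogn (2.06, adjusted p = 0.109) under quantile normalization and Dcn without the trend (1.63, adjusted p = 0.0506) in P1 of periosteum, and Kera for P3 against P2 of muscle with a pseudocount of 0.1 (5.66, adjusted p = 0.0809).

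The sign turned for uncalled values only. With a pseudocount of 5 Kera in P1 of bone marrow was at -0.045. In P1 cells of muscle against periosteum, rescaling gave 0.159 for Fmod and 0.0845 for Aspn, and quantile normalization 0.0203 for Fmod and -0.0045 for Prelp. In muscle against periosteum, quantile normalization gave -0.0835 for Lum, -0.0755 for Aspn and -0.0429 for Omd, and leaving out P2 gave -0.331 for Aspn and 0.0337 for Prelp. Leaving out P2 also gave -0.428 for Bgn and -0.387 for Lum in P1 of muscle, 0.272 for Aspn in P1 of bone marrow and 0.545 for Prelp in the P1 change of periosteum against bone marrow. Leaving out 1 library gave -0.616 to 0.71 for Kera in P1 of bone marrow, -0.374 to 0.375 for Prelp in P1 of periosteum, and, in P1 cells of periosteum against bone marrow, -0.161 to 0.245 for Dcn, -0.109 to 0.112 for Bgn and -0.167 to 0.464 for Lum. In muscle against periosteum it gave -0.223 to 0.158 for Lum, -0.637 to 0.845 for Aspn and -0.689 to 1.42 for Omd, and in P1 cells of these tissues -0.295 to 0.285 for Fmod, -0.201 to 0.508 for Ogn, -0.33 to 0.0647 for Aspn and -0.178 to 0.571 for Prelp. The causes were not tested.

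The share of called genes that were higher moved with the scaling, from 84.4% to 49.3% (quantile) for muscle against periosteum, 19.3% to 50.1% for periosteum against bone marrow, 88.6% to 66.6% for P1 cells of muscle against periosteum, 39.5% to 51.8% for P1 of bone marrow, and 39.3% to 58% (rescaled) for P1 cells of periosteum against bone marrow. Rescaling also took it from 64.8% to 80.5% for P1 cells of muscle against bone marrow, 56.5% to 70.8% for P1 of muscle, 50.2% to 75.5%, 54.5% to 78.9% and 26.9% to 65.6% for P3 against P2 of muscle, periosteum and bone marrow, and 64% to 76.3%, 56.2% to 79% and 44.8% to 58.9% for the P1 changes of muscle against periosteum, muscle against bone marrow and periosteum against bone marrow. It moved the median over all genes in P1 cells of muscle against bone marrow from 0.06 to 0.64. Samples with the same replicate number did not deviate together (mean r of 0.000238 over 36 pairs of groups, -0.0592 to 0.0501), so the numbers are not read as pairs. The replicate block changed 1 call, adding Chad in P1 of muscle (4.11, adjusted p = 0.043).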
